A study of Mus musculus with 16 samples.

Results

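The genes described here are *Slc39a8*, the gene that carries the studied mutation, and 8 genes that move, pump or use manganese and iron: *Slc39a14*, *Slc30a10*, *Slc11a2*, *Slc40a1*, *Tfrc*, *Atp2c1*, *Sod2* and *Glul*. They were taken by name from the deposited gene table, in which all 9 were found among 37583 genes. Their RNA was measured by poly(A)-selected RNA sequencing of cortex and cerebellum from 8 mice on the C57BL/6J background. The wild-type group held mice CTX447, CTX448, CTX479 and CTX480, and the A391T group held mice CTX445, CTX446, CTX461 and CTX462, labelled as *Slc39a8* A391T (A393T) mutants. Each mouse gave 1 library per region, named CTX for cortex or CBLM for cerebellum with the number of the mouse, and mice are called here by their cortex library, so that each region and genotype had 4 libraries. The study's methods describe adult male mice, unperfused brains and blunt dissection, with frontal cortex as the cortical region. The labels do not say whether the mutants were heterozygous or homozygous.

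A second set of names exists for the same libraries. In the deposited RPKM table, 8 of the 16 columns, those of 4 mice, carried values proportional to the counts of a library with another name. Count-file mice CTX447 and CTX448 appeared there as A391T mice CTX461 and CTX462, and the reverse, in both regions. Under the names of the RPKM table the A391T group therefore held the libraries that the count files give to mice CTX445, CTX446, CTX447 and CTX448, and the wild-type group held those of mice CTX461, CTX462, CTX479 and CTX480. Mice CTX445, CTX446, CTX479 and CTX480 had the same genotype under both. Mice are numbered below as in the count files, and each genotype difference is given under both sets of names.

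Manganese enters cells through the ZRT/IRT-like proteins ZIP8 (*Slc39a8*) and ZIP14 (*Slc39a14*), through the divalent metal transporter DMT1 (*Slc11a2*) and, bound to transferrin, through the transferrin receptor (*Tfrc*). ZnT10 (*Slc30a10*) exports manganese from the cell, ferroportin (*Slc40a1*) is the iron exporter and can carry manganese, and the pump SPCA1 (*Atp2c1*) moves manganese and calcium into the Golgi, where many glycosyltransferases need manganese. Mitochondrial superoxide dismutase (*Sod2*) and glutamine synthetase (*Glul*), an enzyme of astrocytes in the brain, use manganese as their cofactor. Iron regulatory proteins bind hairpins in the untranslated parts of some of these messages when cell iron is low, which stabilises *Tfrc* RNA and blocks translation of *Slc40a1* and the ferritins.

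The mutated codon is shown because it defines the A391T group, and because its number differs between the names in the label. In the annotation of build NCBIM37 (mm9), *Slc39a8* lies on chr3:135488243-135551536, plus strand, and its coding sequence has 463 codons. Codon 393 of the mouse transcript encodes alanine, which the codon of the other number in the label does not. Codon 393 is printed in capitals with 21 bases on each side, and the whole printed stretch is coding sequence at chr3:135547667-135547711. The change replaces an amino acid and leaves the transcript in place, so the *Slc39a8* level checks no genotype label.
Slc39a8 codon 393, wild-type reference: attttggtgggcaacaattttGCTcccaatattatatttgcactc

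The letters of iron-responsive elements, the hairpins named above, are shown because they lie in the RNA of members and of ferritin genes described below. The letters searched on the transcript strand were a C, any 5 bases, the loop CAGTGN, and 5 bases that pair with those before the loop (G-T pairs allowed), outside the coding sequence. They were found in 157 of 22754 protein-coding genes (0.69%), and in 2 of the 9 members: *Tfrc* held 4 in its 3′ untranslated region and *Slc40a1* held 1 in its 5′ untranslated region. Of the 38 other iron and manganese genes listed, the ferritin genes *Fth1* and *Ftl1* held them. Each is printed with 29 bases and its loop in capitals, and a match describes letters only. Elements of another form, or in transcripts outside this annotation, were not searched, so nothing follows for the other members, and *Slc11a2* is known for an iron-responsive element in some of its transcripts.
Tfrc, chr16:32631305-32631333, plus strand: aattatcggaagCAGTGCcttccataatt
Tfrc, chr16:32631684-32631712, plus strand: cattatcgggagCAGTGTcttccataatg
Tfrc, chr16:32631749-32631777, plus strand: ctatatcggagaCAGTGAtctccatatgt
Tfrc, chr16:32631796-32631824, plus strand: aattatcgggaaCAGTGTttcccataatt
Slc40a1, chr1:45982310-45982338, minus strand: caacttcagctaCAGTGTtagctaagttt
Fth1, chr19:10057222-10057250, plus strand: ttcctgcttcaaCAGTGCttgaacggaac
Ftl1, chr7:52715149-52715177, minus strand: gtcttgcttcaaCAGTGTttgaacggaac

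The 16 libraries held 20813432 to 30497206 reads counted in genes. The regional markers followed the labels: 8 cortical markers summed to 505 to 576 TPM in cortex and 32.7 to 42.9 TPM in cerebellum, and 8 cerebellar markers to 37.1 to 57.0 and 5039 to 5594 TPM. Markers of neighbouring structures varied within groups: 7 striatal markers summed to 285 TPM in A391T library CTX461 and 630 to 969 TPM in the other cortex libraries, and 8 choroid plexus markers to 54.5 to 8130 TPM over the cerebellum libraries. The A391T cerebellum library CBLM445 stood apart, with a root mean square deviation of 0.462 from its group on the log2 scale against 0.176 to 0.321 in the other libraries. *Lcn2*, an acute-phase protein that binds iron-carrying siderophores, was at 32.1 and 53.5 TPM in the cortex and 34.9 and 52.3 TPM in the cerebellum of mice CTX479 and CTX480. It was at 3.77 and 6.43 TPM in mouse CTX448 and at 0.057 to 0.519 TPM in the libraries of the other 5 mice. *Lcn2* was singled out after its values were seen. Values without mice CTX479 and CTX480, or without library CBLM445, are given below for the results that they changed most.

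The members spanned almost 3 orders of magnitude in TPM, the count per gene length scaled to the same total in every library. In wild-type cortex *Glul* was highest at 1872 ± 87.1 TPM (SD, n = 4), 16.0 times the level of *Sod2* at 118 ± 8.34 TPM. *Atp2c1* followed at 90.8 ± 1.68 TPM, *Tfrc* at 71.9 ± 4.01 TPM and *Slc11a2* at 31.9 ± 2.60 TPM. *Slc30a10* (13.9 ± 0.467 TPM), *Slc40a1* (13.6 ± 2.82 TPM) and *Slc39a14* (11.6 ± 1.32 TPM) lay close together, and neighbours in this group overlapped between libraries. *Slc39a8* was lowest at 2.14 ± 0.579 TPM. *Slc39a14*, its closest relative among the members, was 5.65 times higher, with a range of 4.32 to 7.26 times over the 4 mice.

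In wild-type cerebellum the first 5 places held the same genes in the same order. The manganese importer *Slc39a14* stood sixth there at 14.7 ± 0.926 TPM, above *Slc40a1* at 8.34 ± 0.543 TPM and *Slc30a10* at 6.06 ± 0.360 TPM, and no neighbours overlapped. *Slc39a8* was again lowest at 2.75 ± 0.302 TPM. In the A391T mice the order differed by 1 exchange, *Slc40a1* above *Slc30a10* in cortex, where the values of the pair overlapped in both genotypes. Over all 16 libraries *Slc39a8* had 75 to 171 counts, the fewest of any member, and *Glul* reached 47775.

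**Figure D1:**
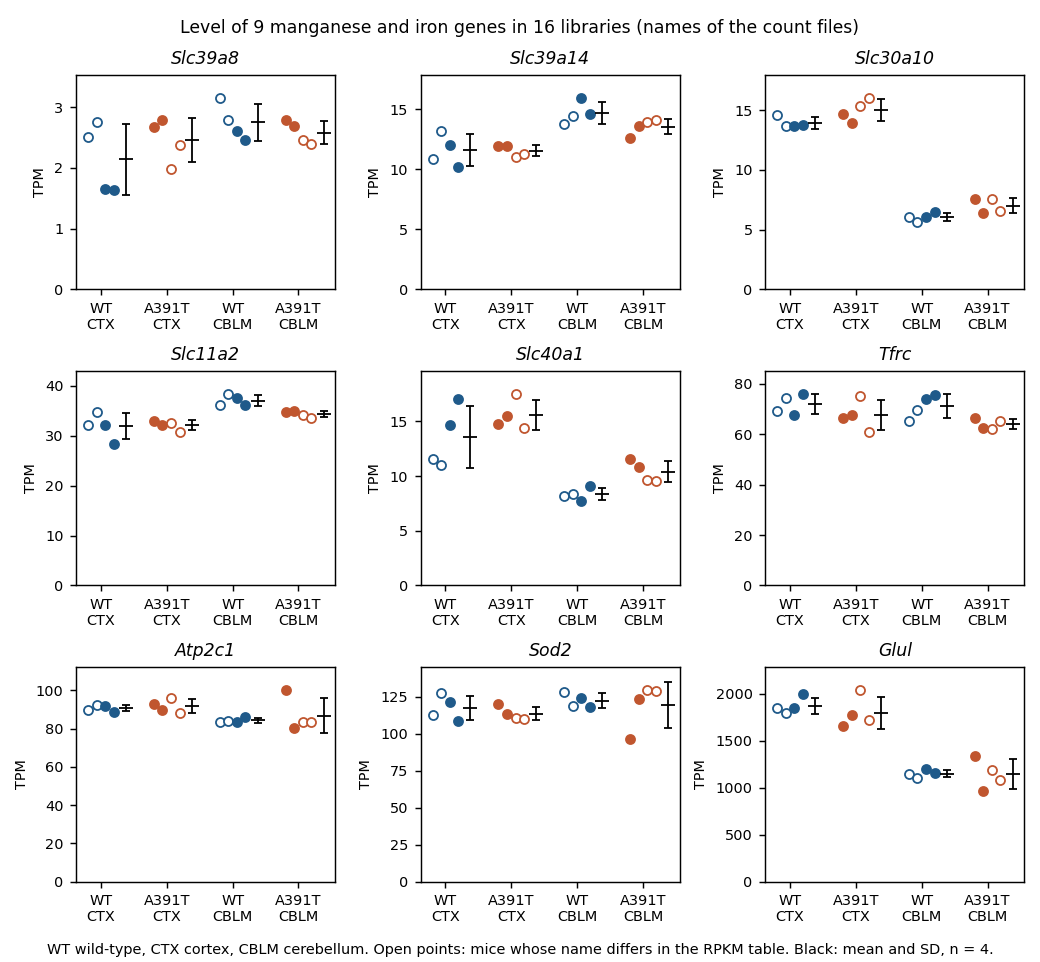
Level of each gene in TPM (vertical axes, from 0) in every library, by genotype and region, with the mean and SD of 4 libraries in black and open points for the 4 mice named differently in the RPKM table. *Slc30a10*, *Slc40a1* and *Glul* are lower in cerebellum in both genotypes, and *Slc39a8* lies between 1.63 and 3.16 TPM throughout.

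The comparison of cerebellum with cortex asked where the manganese and iron genes differ between the regions. By the quasi-likelihood test of edgeR, with p-values adjusted after Benjamini and Hochberg over all genes, 5 of the 9 members were lower in wild-type cerebellum and none was higher, where 67.8% of all 16040 genes tested passed, 34.7% higher and 33.1% lower. The exporters *Slc30a10* and *Slc40a1* and the enzyme gene *Glul* fell most, *Atp2c1* and *Tfrc* fell slightly, and the importers *Slc39a8*, *Slc39a14* and *Slc11a2* did not pass. In the A391T mice 3 members passed, *Slc30a10*, *Slc40a1* and *Glul*, all lower, against 62.8% of genes, 31.6% higher and 31.3% lower. With the names used in the RPKM table, 5 members passed in wild type, 1 higher (*Slc39a14*) and 4 lower, against 66.4% of genes, 33.9% higher and 32.5% lower. In A391T 4 passed under those names, *Tfrc* beside the 3 named, against 64.4% of genes. Groups that did not overlap in TPM between the regions, of which several are given below, were found for 65.7% of genes in wild type and 61.6% in A391T. In bulk tissue, fewer cells of a type and less RNA per cell cannot be told apart.

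*Slc30a10* differed most between the regions. Its level in wild-type cortex was 14.6, 13.7, 13.7 and 13.7 TPM in mice CTX447, CTX448, CTX479 and CTX480, and in cerebellum 6.09, 5.63, 6.01 and 6.51 TPM. In the A391T mice CTX445, CTX446, CTX461 and CTX462 it was 14.7, 13.9, 15.4 and 16.1 TPM in cortex and 7.55, 6.42, 7.53 and 6.56 TPM in cerebellum. Every cortex library lay above every cerebellum library. The log2 fold change was -1.35 (SE 0.07, edgeR adjusted p = 2.9e-08) in wild type, 2.55-fold lower, and -1.19 (SE 0.10, adjusted p = 4.1e-06) in A391T. It was the only member past a 2-fold difference, which 24.7% of genes reached in each genotype, and it passed under all 21 settings run in wild type and all 22 in A391T. A noncoding gene on the other strand, *Gm2061*, covered 9.1% of its exon bases. Reads from shared bases are ambiguous in counts made without strand, and ambiguous reads were left out of the counts.

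*Slc40a1* was lower in cerebellum in both genotypes. In wild-type cortex it was 11.6, 11.0, 14.7 and 17.1 TPM, the highest values being those of mice CTX479 and CTX480, and in wild-type cerebellum 8.17, 8.38, 7.75 and 9.05 TPM. In A391T cortex it was 14.8, 15.5, 17.5 and 14.4 TPM and in A391T cerebellum 11.6, 10.8, 9.65 and 9.56 TPM, and in neither genotype did the regions overlap. The log2 fold change was -0.85 (SE 0.14, edgeR adjusted p = 0.00026) in wild type and -0.67 (SE 0.11, adjusted p = 0.00049) in A391T. Without mice CTX479 and CTX480 the wild-type difference was -0.60 (adjusted p = 0.0015). With only the mice whose names match, the A391T difference was -0.49 and did not pass (adjusted p = 0.061, 2 libraries per region). The 8 microglial markers were also lower in cerebellum: they summed to 798 to 958 TPM in wild-type cortex and 299 to 310 TPM in wild-type cerebellum, none at 0. With each region's mean subtracted, the Pearson r of *Slc40a1* with their sum over the 16 libraries was -0.093. The part of these markers in the result was not tested.

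*Glul* was 1844, 1795, 1852 and 1997 TPM in wild-type cortex and 1146, 1099, 1197 and 1154 TPM in wild-type cerebellum. In A391T mice it was 1652, 1777, 2041 and 1721 TPM in cortex and 1340, 962, 1184 and 1083 TPM in cerebellum, where mouse CTX445 was highest. The regions did not overlap in either genotype. The log2 fold change was -0.86 (SE 0.06, edgeR adjusted p = 2.2e-07) in wild type and -0.75 (SE 0.13, adjusted p = 0.00048) in A391T, the latter not passing with only the mice whose names match (-0.62, adjusted p = 0.072). The 9 astrocyte markers moved the other way in sum, from 2661 to 2960 TPM in wild-type cortex to 4690 to 5050 TPM in wild-type cerebellum, none at 0, and their part in the result was not tested. Of the 9, 5 were higher in wild-type cerebellum and 1 was lower by edgeR's test. The lower one, named after its values were seen, was the glutamate transporter gene *Slc1a2*, 4.18-fold lower (adjusted p = 1.6e-09).

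The Golgi pump gene *Atp2c1* was 89.9, 92.4, 92.0 and 88.9 TPM in wild-type cortex and 83.6, 84.3, 83.3 and 86.2 TPM in wild-type cerebellum. The regions did not overlap, and the difference was small: a log2 fold change of -0.26 (SE 0.05, edgeR adjusted p = 0.00052), 1.20-fold lower. It passed under 20 of the 21 settings run, was -0.14 (adjusted p = 0.024) with library totals, and did not pass with only the mice whose names match (-0.26, adjusted p = 0.066). In A391T cortex it was 93.0, 89.8, 96.3 and 88.3 TPM and in A391T cerebellum 100.3, 80.3, 83.3 and 83.3 TPM. The value of 100.3 TPM came from CBLM445, the library that stood apart. With it the A391T difference was -0.18 and did not pass (adjusted p = 0.15), and without it the difference was -0.29 (adjusted p = 5.9e-05).

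*Tfrc* was 69.4, 74.5, 67.7 and 76.1 TPM in wild-type cortex and 65.1, 69.5, 74.1 and 75.7 TPM in wild-type cerebellum. These ranges overlapped, yet on the TMM-scaled counts the log2 fold change was -0.17 (SE 0.06, edgeR adjusted p = 0.036). The call held under 8 of the 21 settings run. It did not hold under the names of the RPKM table (adjusted p = 0.11) or under scaling by library totals (-0.05, adjusted p = 0.54). It was also lost on leaving out the cerebellum library CBLM447, CBLM448 or CBLM480 (adjusted p = 0.15, 0.10 and 0.051) or the cortex library CTX447, CTX448 or CTX480 (adjusted p = 0.054, 0.074 and 0.054). In A391T *Tfrc* was 66.5, 67.7, 75.3 and 60.9 TPM in cortex and 66.3, 62.5, 62.2 and 65.1 TPM in cerebellum, a log2 fold change of -0.18 (adjusted p = 0.072). That difference passed under 5 of the 22 settings run, among them the names of the RPKM table (-0.18, adjusted p = 0.043), leaving out the cerebellum library CBLM445 (-0.23, adjusted p = 0.004) and leaving out the cortex library CTX462 (adjusted p = 0.048).

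The importer gene *Slc39a14* was 10.9, 13.2, 12.0 and 10.2 TPM in wild-type cortex and 13.8, 14.4, 16.0 and 14.6 TPM in wild-type cerebellum. The cerebellum values lay above all cortex values, but the log2 fold change of 0.19 (SE 0.08) did not pass by edgeR's test (adjusted p = 0.051). It passed with the mouse as a block (adjusted p = 0.045), under the names of the RPKM table (0.25, adjusted p = 0.0071), without the cerebellum library CBLM447 (adjusted p = 0.04) and without the cortex library CTX448 (adjusted p = 0.012). In A391T it was 11.9, 12.0, 11.0 and 11.2 TPM in cortex and 12.6, 13.6, 13.9 and 14.1 TPM in cerebellum, also without overlap, with a log2 fold change of 0.13 (adjusted p = 0.083, and 0.033 without the cerebellum library CBLM445). Scaling by library totals, which moved the median of all genes to 0.14 in wild type and 0.158 in A391T from 0.018 and 0.026 under TMM, gave 0.31 and 0.26, both past the threshold.

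*Slc39a8* itself showed no difference between regions past the threshold in any setting. It was 2.52, 2.75, 1.66 and 1.63 TPM in wild-type cortex and 3.16, 2.78, 2.61 and 2.46 TPM in wild-type cerebellum. The cortex values of mice CTX479 and CTX480 lay below all others, and the rest overlapped with cerebellum. The log2 fold change was 0.20 (SE 0.18, edgeR adjusted p = 0.35) in wild type and -0.02 (SE 0.14, adjusted p = 0.89) in A391T, and without mice CTX479 and CTX480 the wild-type value was 0.02 (adjusted p = 0.90). In the A391T mice it was 2.68, 2.79, 1.98 and 2.38 TPM in cortex and 2.79, 2.70, 2.46 and 2.39 TPM in cerebellum.

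The divalent metal transporter gene *Slc11a2* was 32.1, 34.8, 32.2 and 28.4 TPM in wild-type cortex and 36.1, 38.4, 37.5 and 36.1 TPM in wild-type cerebellum. These did not overlap on the TPM scale, but on the TMM-scaled counts the log2 fold change was 0.07 (SE 0.07, edgeR adjusted p = 0.40), and 0.19 (adjusted p = 0.014) with library totals. In the A391T mice it ranged from 30.8 to 33.1 TPM in cortex and from 33.6 to 35.0 TPM in cerebellum, with a log2 fold change of -0.00 (adjusted p = 0.98). *Gm5475*, a gene on the other strand, covered 6.3% of the exon bases of *Slc11a2*. *Sod2* was 112, 127, 121 and 109 TPM in wild-type cortex and 129, 119, 124 and 118 TPM in wild-type cerebellum, with overlap and a log2 fold change of -0.09 (SE 0.06, adjusted p = 0.20). In A391T cerebellum its lowest value, 96.5 TPM, was that of library CBLM445, against 124 to 130 TPM in the others, and the A391T difference was -0.03 (adjusted p = 0.72), or 0.03 (adjusted p = 0.55) without that library.

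**Figure D2:**
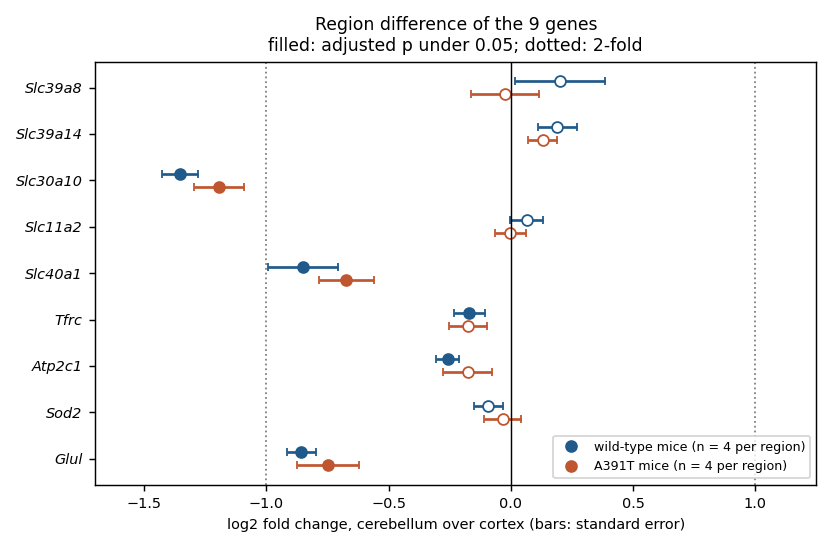
Log2 fold change of cerebellum over cortex with its standard error (horizontal axis) for the 9 genes in wild-type and A391T mice, filled where the adjusted p was under 0.05. *Slc30a10*, *Slc40a1* and *Glul* lie to the left of 0 and are filled in both genotypes, and only *Slc30a10* lies past the dotted 2-fold line.

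The other 38 iron and manganese genes listed place the members in their pathway, and 33 of them passed the filter on low counts in each genotype. In wild type 25 were called, 15 higher and 10 lower in cerebellum, with a median log2 fold change of 0.15 against 0.018 for all genes tested. In A391T 25 were called, 16 higher and 9 lower. These shares stand beside the 67.8% and 62.8% of all genes that passed in wild type and A391T, and the counts of the smaller lists below are to be read against the same background. Of the 8 iron uptake and reduction genes tested in wild type, 4 were higher and 2 lower. *Steap2*, a metalloreductase gene, rose from 2.78 ± 0.349 TPM in cortex to 25.7 ± 1.45 TPM in cerebellum (SD, n = 4), a log2 fold change of 3.05 (SE 0.09, edgeR adjusted p = 1.4e-10). Its relative *Steap3*, the reductase of transferrin endosomes, fell by 1.35 on the log2 scale (adjusted p = 2.1e-06), and *Tfr2*, a second transferrin receptor, fell by 1.32 (adjusted p = 4.4e-06). *Trf*, which encodes transferrin, rose from 25.0 ± 2.86 to 50.5 ± 7.06 TPM, a log2 fold change of 0.87 (SE 0.12, adjusted p = 6.2e-05). A second entry of the same name covered 63.7% of the exon bases of *Trf*. Reads that fit both entries are ambiguous and were left out, so its counts are uncertain and its level may be too low.

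Among the iron storage genes *Fth1*, the heavy ferritin chain, was lower in cerebellum, at 5870 ± 615 TPM against 8694 ± 1253 TPM in wild-type cortex, a log2 fold change of -0.72 (SE 0.11, edgeR adjusted p = 0.00018), or -0.52 (adjusted p = 0.00021) without mice CTX479 and CTX480. *Ftl1*, the light chain, was at 51.1 ± 7.25 and 44.1 ± 3.49 TPM and did not pass (0.06, SE 0.11, adjusted p = 0.62), though it did without those mice (0.28, adjusted p = 0.032). Reads that did not align uniquely were not counted. How many of them came from *Ftl1* is not known, so its level may be too low. In the hepcidin axis 2 of the 4 genes tested were higher and 2 lower, and all 5 genes of cellular iron regulation had positive differences, of which 4 passed. *Hfe2*, the hemojuvelin gene, had 44 to 50 counts per wild-type cortex library and 2 to 6 per cerebellum library. Its summed counts, scaled for library totals, were 11.5 times higher in cortex (95% exact counting interval 6.92 to 20.6, adjusted p = 4.1e-07). *Heph*, the gene of the iron oxidase hephaestin, did not pass in wild type (0.04, adjusted p = 0.77) and was higher in A391T cerebellum (0.33, adjusted p = 0.031), where the call was lost under the names of the RPKM table (0.15, adjusted p = 0.38), with the mouse as a block (adjusted p = 0.058) and with only the mice whose names match (adjusted p = 0.36). *Cp*, which encodes the iron oxidase ceruloplasmin, had a log2 fold change of 0.49 (SE 0.21, adjusted p = 0.056), but it passed under 11 of the 21 settings run, among them the mouse as a block (0.50, adjusted p = 0.00056), DESeq2 (adjusted p = 0.042) and leaving out mice CTX479 and CTX480 (0.55, adjusted p = 0.0013). Among the settings that leave out 1 library, it passed without the cerebellum library CBLM447 (adjusted p = 0.027) and without the cortex library CTX480 (adjusted p = 0.0097). In A391T *Cp* rose by 0.53 (adjusted p = 0.0026).

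Of the 6 manganese transport genes, 2 were higher and 3 lower in wild-type cerebellum. *Atp2c2*, the paralog of *Atp2c1*, had 21 to 29 counts per wild-type cortex library and 1 to 8 per cerebellum library, and its scaled counts were 5.43 times higher in cortex (95% counting interval 3.31 to 9.38, edgeR adjusted p = 0.00021). *Slc11a1*, the phagocyte relative of *Slc11a2*, fell by 1.15 (SE 0.17, adjusted p = 0.00012), beside the lower microglial markers given above for cerebellum. *Slc39a4*, a zinc importer gene of the *Slc39a8* family, ranged from 0.518 to 1.11 TPM in wild-type cortex and was 3.33, 3.88, 0.403 and 3.02 TPM in the cerebellum of mice CTX447, CTX448, CTX479 and CTX480. Its call (1.63, SE 0.54, adjusted p = 0.02) was lost under the names of the RPKM table (0.28, adjusted p = 0.73) and without the cerebellum library CBLM448 or the cortex library CTX447 (adjusted p = 0.056 and 0.057). The 8 choroid plexus markers, none at 0 in all libraries of a group, followed the same order: they summed to 7127, 8130, 55.8 and 5361 TPM in those 4 cerebellum libraries and to 9.85 to 51.5 TPM in wild-type cortex. Their part in the result was not tested.

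**Figure D3:**
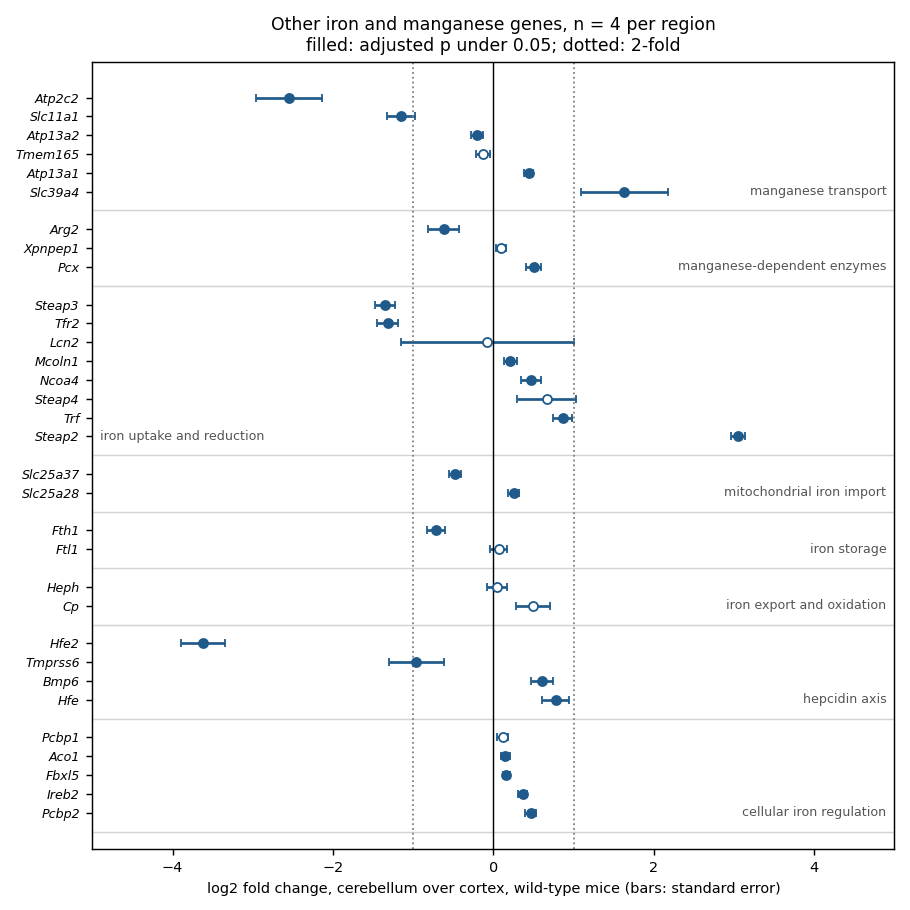
Log2 fold change of cerebellum over cortex with its standard error (horizontal axis) in wild-type mice for other iron and manganese genes tested, grouped by list and filled where the adjusted p was under 0.05. *Steap2* lies farthest to the right and *Hfe2* and *Atp2c2* farthest to the left, while *Fth1* is lower and *Ftl1* is near 0.

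The comparison of A391T with wild-type mice asked whether the mutation moved the RNA of the manganese and iron genes. By edgeR's quasi-likelihood test 0 of the 9 members passed in either region, under either set of names. In cortex 0.0126% of 15815 genes passed under the names of the count files and 0% under those of the RPKM table, and in cerebellum 0% of 15668 genes passed under both. DESeq2, under the names of the count files, called 0 members in cortex and 0 in cerebellum, and 14 of 14893 and 30 of 13839 genes. At an unadjusted p under 0.05 the members numbered 0 in cortex and 2 in cerebellum under the names of the count files, and 2 and 1 under those of the RPKM table, where 4.73%, 8.55%, 4.72% and 7.82% of all genes reached it.

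*Slc39a8* was the member whose genotypes did not overlap in either region under one set of names and overlapped in both under the other. In cortex its 4 highest values, 2.52 to 2.79 TPM, were those of mice CTX445, CTX446, CTX447 and CTX448, which form the A391T group of the RPKM table, and its 4 lowest, 1.63 to 2.38 TPM, those of mice CTX461, CTX462, CTX479 and CTX480. In cerebellum the same mice held the 4 highest values, 2.70 to 3.16 TPM, above 2.39 to 2.61 TPM in the others. Under the names of the RPKM table the genotypes thus did not overlap in either region, and the log2 fold change of A391T over wild-type was 0.47 (SE 0.13, unadjusted p = 0.0037, edgeR adjusted p = 0.88) in cortex and 0.27 (SE 0.10, unadjusted p = 0.026, adjusted p = 0.55) in cerebellum. Under the names of the count files both groups overlapped, and the values were 0.17 (SE 0.18, adjusted p = 1) and -0.03 (SE 0.13, adjusted p = 0.93).

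Genes without overlap between the genotypes in cortex made up 3.24% of genes under the names of the count files and 3.03% under those of the RPKM table, and in cerebellum 7.79% and 6.88%. Without overlap and in the same direction in both regions were 12 of 16025 genes under the names of the RPKM table (0.0749%), *Slc39a8* among them, and 45 under those of the count files (0.281%), *Slc39a8* not among them. With only the 4 mice whose names match, 2 per genotype, the cortex difference was 0.70 (SE 0.17, edgeR adjusted p = 0.83). Mice CTX479 and CTX480, with high *Lcn2*, were the wild-type mice of that comparison. Without them the cortex difference was 0.29 (adjusted p = 0.81) under the names of the RPKM table and -0.11 (adjusted p = 1) under those of the count files. The cerebellum difference without them was 0.28 (adjusted p = 0.94) and -0.17 (adjusted p = 0.99) under the respective names, and without library CBLM445 it was 0.24 (adjusted p = 0.48) and -0.12 (adjusted p = 0.72). The 9 endothelial markers summed to 548 and 652 TPM in the cortex of mice CTX479 and CTX480 and to 472 to 557 TPM in the other cortex libraries, none at 0, and their part in the result was not tested.

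*Slc40a1* in cerebellum was the member with the lowest unadjusted p under the names of the count files. Its 4 A391T values, 9.56 to 11.6 TPM, lay above its 4 wild-type values, 7.75 to 9.05 TPM, and the log2 fold change was 0.38 (SE 0.12, unadjusted p = 0.0096, edgeR adjusted p = 0.53). Under the names of the RPKM table the groups overlapped and the value was 0.19 (SE 0.16, adjusted p = 0.62). Without library CBLM445, the highest of the A391T values, the difference was 0.28 (adjusted p = 0.34) and 0.05 (adjusted p = 0.92) under the respective names, and without mice CTX479 and CTX480 it was 0.36 (adjusted p = 0.99) and 0.07 (adjusted p = 0.95). In cortex the difference was 0.18 (SE 0.14, adjusted p = 1) under the names of the count files and -0.28 (SE 0.12, adjusted p = 0.88) under those of the RPKM table, so that its sign depended on the names. The lowest cortex values were those of mice CTX447 and CTX448, 11.6 and 11.0 TPM, against 14.4 to 17.5 TPM in the other 6 mice. Without mice CTX479 and CTX480 the cortex difference was 0.45 (adjusted p = 0.57) under the names of the count files and -0.27 (adjusted p = 0.85) under those of the RPKM table. The 6 blood markers found in the files, none at 0, summed to 595, 361, 487 and 506 TPM in the A391T cerebellum libraries and to 369 to 441 TPM in the wild-type ones, and their part in the result was not tested.

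**Figure D4:**
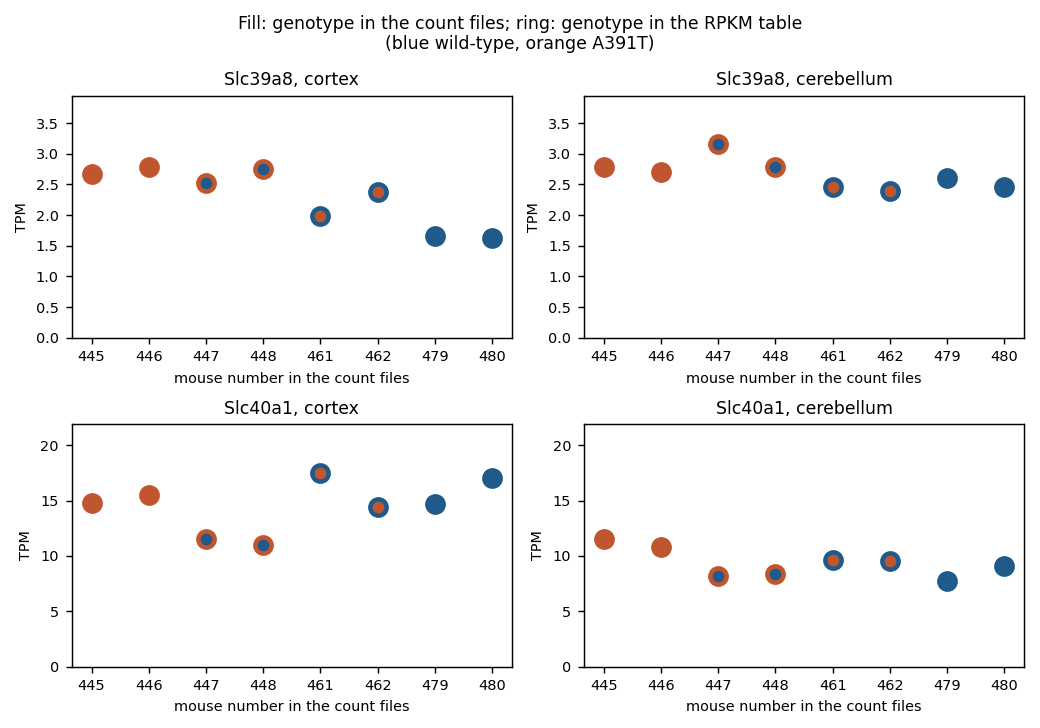
Level of *Slc39a8* and *Slc40a1* in TPM (vertical axes, from 0) by mouse number in cortex and cerebellum, with the fill showing the genotype in the count files and the ring that in the RPKM table. Points with orange rings hold the 4 highest *Slc39a8* values in both regions, and points with orange fill hold the 4 highest *Slc40a1* values in cerebellum.

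*Slc30a10* in cerebellum was 6.42 to 7.55 TPM in A391T and 5.63 to 6.51 TPM in wild-type mice, with overlap, and its log2 fold change of 0.27 (SE 0.11, unadjusted p = 0.030, edgeR adjusted p = 0.53) became 0.02 (SE 0.14, adjusted p = 0.95) under the names of the RPKM table. Without library CBLM445 these were 0.19 (adjusted p = 0.44) and -0.11 (adjusted p = 0.73). In cortex it was 0.09 and -0.06 under the respective names. *Slc11a2* in cerebellum did not overlap on the TPM scale under the names of the count files, at 33.6 to 35.0 TPM in A391T and 36.1 to 38.4 TPM in wild-type mice, but on TMM-scaled counts it differed by -0.05 (SE 0.07, adjusted p = 0.75), and by 0.09 under the names of the RPKM table. *Tfrc* differed by -0.11 in cortex and -0.09 in cerebellum under the names of the count files, and by -0.02 and -0.01 under those of the RPKM table. *Slc39a14*, *Atp2c1*, *Sod2* and *Glul* differed by -0.12 to 0.12 in both regions under both sets of names. The standard errors of these 4 genes were 0.05 to 0.12, on the log2 scale.

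**Figure D5:**
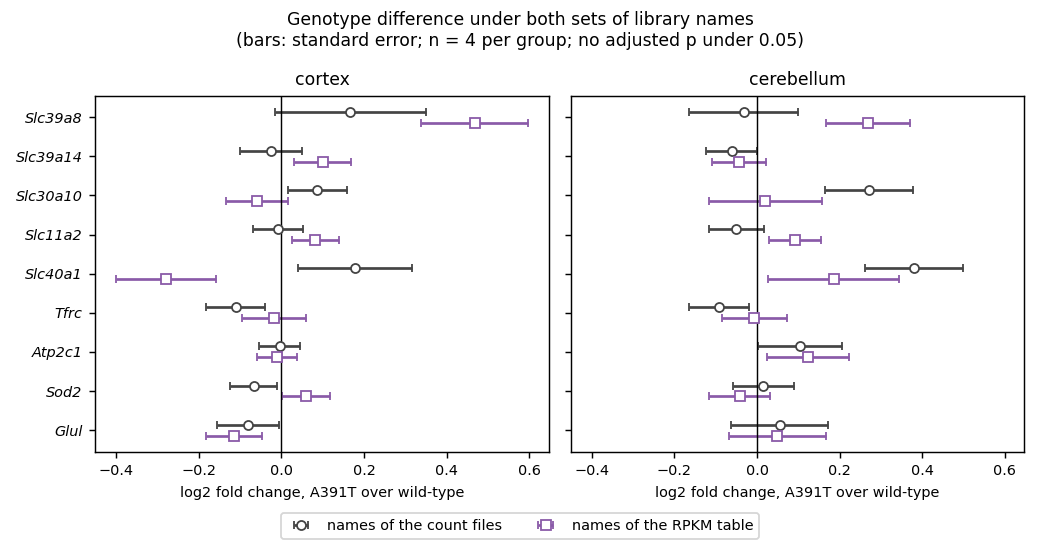
Log2 fold change of A391T over wild-type with its standard error (horizontal axes) for the 9 genes in cortex and cerebellum, under the names of the count files (circles) and of the RPKM table (squares). *Slc39a8* moves to the right and *Slc40a1* to the left when the names of the RPKM table are used, and no gene passed the adjusted threshold.

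Whether a genotype difference itself differed between the regions was tested over all 16 libraries. By edgeR's test 0 of the 9 members passed under either set of names, as did 0% of 16589 genes, and DESeq2 called 0 members and 1 of 16577 genes under the names of the count files. At an unadjusted p under 0.05 the members numbered 0 under the names of the count files and 1 under those of the RPKM table, where 4.85% and 9.51% of all genes reached it. That member was *Slc40a1*, whose genotype difference was 0.46 higher in cerebellum than in cortex on the log2 scale (SE 0.21, adjusted p = 0.50), and 0.19 higher (SE 0.19, adjusted p = 0.80) under the names of the count files. Without mice CTX479 and CTX480 these values were 0.34 (adjusted p = 0.89) and -0.08 (adjusted p = 1), and without library CBLM445 they were 0.32 (adjusted p = 0.64) and 0.10 (adjusted p = 0.95).

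None of the other listed iron and manganese genes passed in these fits: 0 of 31 in cortex, 0 of 30 in cerebellum and 0 of 34 in the interaction by edgeR's test, under both sets of names, and 0 by DESeq2 under the names of the count files. *Lcn2* was not among those tested for genotype in cortex or cerebellum, since it fell to the filter on low counts. Its result in cortex without that filter is given at the end. At an unadjusted p under 0.05 they numbered 2, 3 and 0 under the names of the count files, where 4.73%, 8.55% and 4.85% of all genes reached it, and 1, 3 and 5 under those of the RPKM table, where 4.72%, 7.82% and 9.51% did. *Cp* had a lower mean in A391T in both regions under both sets: the log2 fold change was -0.46 (SE 0.19) in cortex and -0.40 (SE 0.16) in cerebellum under the names of the count files, and -0.54 (SE 0.16) and -0.38 (SE 0.16) under those of the RPKM table, with edgeR adjusted p of 1, 0.53, 0.88 and 0.55. Its highest values were those of mice CTX479 and CTX480, 8.30 and 9.60 TPM in cortex against 4.42 to 6.28 TPM in the others, and 13.1 and 14.2 TPM in cerebellum against 7.06 to 9.48 TPM. These are the mice with the highest *Lcn2*, and without them the 4 differences were -0.06, -0.09, -0.20 and -0.05, with adjusted p of 1, 0.99, 0.87 and 0.95. *Heph* differed by -0.47 in cortex (SE 0.13, adjusted p = 0.91) under the names of the count files and by -0.15 under those of the RPKM table. The iron storage genes *Fth1* and *Ftl1* differed by -0.16 and -0.13 in cortex and by -0.02 and -0.14 in cerebellum under the names of the count files, and by -0.14, -0.19, -0.00 and 0.16 under those of the RPKM table.

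Across the 16 libraries, with each region's mean subtracted, the genes whose log2 CPM (counts scaled to library size) followed *Slc39a8* most closely among 16589 genes were *Mtmr4* (Pearson r = 0.832), *Dctn2* (0.818), *Gm9804* (0.814), *Snn* (0.808) and *Kcnd1* (0.805). The closest were *Gm13716* for *Slc39a14* (0.94), *Dhcr7* for *Slc30a10* (0.912), *Pcyox1* for *Slc11a2* (0.864) and *Phf19* for *Slc40a1* (0.875). For *Tfrc* it was *Gm13068* (0.882), for *Atp2c1* *Zfp740* (0.964), for *Sod2* *Cplx1* (0.871) and for *Glul* *Brsk1* (0.904). These coefficients describe libraries that share mice, dissections and depth, and the A391T cerebellum library CBLM445 takes part in each of them. Among the members the highest coefficient was that of *Atp2c1* with *Glul* (0.779) and the lowest that of *Slc39a14* with *Slc40a1* (-0.633). *Slc39a8* was closest to *Slc11a2* (0.63). Against the summed markers of other cell types, the coefficients largest in size were those of *Atp2c1* with the 7 neuronal markers (-0.81) and the 9 astrocyte markers (-0.806), of *Glul* with the neuronal markers (-0.765), and of *Slc40a1* with the neuronal markers (-0.727). Library CBLM445 takes part in these coefficients too. Its neuronal markers summed to 3050 TPM against 4009 to 4280 TPM in the other cerebellum libraries. Its astrocyte markers summed to 3471 TPM against 4690 to 5112 TPM. It also held the highest *Atp2c1*, *Glul* and *Slc40a1* values in cerebellum, and the coefficients without it were not computed. The coefficient of *Slc39a8* largest in size was that with the 9 endothelial markers (-0.70).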

How the data were processed

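Per the labels and the study's methods, the authors isolated RNA from snap-frozen tissue, prepared poly(A)-selected directional libraries, aligned the reads to mm9 with STAR and used HTSeq, without regard to strand, for counts of each Ensembl gene. The deposited counts are raw, with 20813432 to 30497206 per library (median 24488842). A further 10.2% to 13.2% of reads fell in no gene and 2.20% to 2.75% were ambiguous. Another 8.41% to 12.1% did not align uniquely, and all of these stayed out of library sizes. The deposited RPKM table, made by the authors, gave gene names, lengths and a second set of library names. Its values were proportional to the counts, column by column, and were not tested.

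Counts were tested with edgeR 4.0.16 (quasi-likelihood test, filterByExpr, TMM, R 4.3.3), with Benjamini-Hochberg adjustment over all genes and a threshold of 0.05, within each genotype for region, within each region for genotype, and over all libraries for the interaction. DESeq2 1.42.0 was an alternative. TPM was computed from counts and the table's gene lengths, and "±" gives the SD over 4 mice. Log2 fold changes come from the fits. The steps were tested on simulated counts. Other alternatives were other scalings and filters, the names of the RPKM table, only the mice named alike in both, the mouse as a block, and leaving out each library. Leaving out mice CTX479 and CTX480 together, or the cerebellum library CBLM445 under the names of the RPKM table, was added after seeing the data. The members and all gene lists were chosen with earlier results of these data known. Named beside the members were the listed genes past the threshold and 2-fold between regions in wild type (at most 8, largest first), any past the threshold for genotype, and *Fth1*, *Ftl1*, *Trf* and *Cp*; 1 gene that this rule names is not reported here, and likeness was ranked by Pearson's r. Sequences and positions come from build NCBIM37 with its GENCODE annotation.

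The mouse number in the labels ties the regions of an animal, so region comparisons are paired by design. The correlation of same-mouse deviations across 16589 genes was -0.099 to 0.119. Counting intervals cover counting error only.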

Additional observations from a re-analysis of the deposited data

Results flagged for a closer look

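Of 36 sets of 4 libraries (9 genes in 4 groups), 2 held a value far from the other 3 by Dixon's test, which chance gives in about 1 in 20 sets. In wild-type cortex *Slc30a10* was 14.62 TPM in mouse CTX447 and 13.66 to 13.74 TPM in the others, and this mouse is named A391T in the RPKM table. In A391T cerebellum *Atp2c1* was 100.3 TPM in library CBLM445 and 80.29 to 83.3 TPM in the others. That library also held the lowest *Sod2* (96.5 TPM) and the highest *Glul* (1340 TPM) of its group.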

How the results depend on the processing

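No member passed for genotype or interaction under any setting. The counts of members called between regions, 5 in wild type and 3 in A391T, became 1 and 1 with a 2-fold criterion and 3 and 1 with only the mice named alike (2 per group). In A391T the count was 6 without the cerebellum library CBLM445, where calls over all genes also rose, from 10056 of 16005 to 11797 of 16226, and 5 without it under the names of the RPKM table. Leaving out each library gave 4 to 5 members in wild type and 3 to 6 in A391T, 22 to 25 other iron and manganese genes in wild type and 19 to 29 in A391T, and 0 for genotype. The other iron and manganese genes, 25 in each genotype, became 8 in wild type and 10 in A391T with the 2-fold criterion, and 16 in A391T with only the mice named alike. For genotype in cortex 1 of these genes, *Lcn2*, passed without the filter on low counts and 1, again *Lcn2*, with only the mice named alike. Ranked by CPM, without gene length, 4 of the 9 members kept their place in wild-type cortex. The call for *Slc39a4* between regions turned to -0.53 (adjusted p = 0.59) under the names of the RPKM table without mice CTX479 and CTX480. Of the values recomputed for single genes, 38 gained a call and 22 lost one, the cause was not tested, and no called value of another gene changed sign. Scaling by library totals moved the calls in A391T from 5051 higher and 5005 lower to 6507 and 4175. With the mouse as a replicate block the members called were 6 in wild type (*Slc39a14* added), 3 in A391T and 0 for the interaction, and the other genes 24, 20 and 0, beside 10566 of 16040, 9492 of 16005 and 0 of 16589 over all genes. The genotypes share no mouse, so that no paired analysis of genotype was possible. The small counts of *Slc39a8* and 4 mice per group limit what differences could be detected.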
